A study of Homo sapiens with 6 samples.

Results

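A set of 10 genes of the MHC class II pathway was followed in SEM cells, a human B-cell lymphoblastic leukemia line, in which wild-type CTCF was swapped for a form that lacks its RNA-binding region. They were the rows of the deposited count and TPM tables whose gene symbol was HLA-DRA, HLA-DRB1, HLA-DQA1, HLA-DQB1, HLA-DPA1, HLA-DPB1, HLA-DMA, HLA-DMB, CD74 or CIITA, so that 10 of the 57820 genes listed were taken, each with 1 row. All 6 libraries came from cells with OsTIR1(F74G), a plant-derived adaptor for protein degradation, and with endogenous CTCF fused to miniAID-mClover3, a degron tag. All were given 5-Ph-IAA, the ligand that starts the degradation of the tagged CTCF, for 24 h in total, and after the first 6 h 1 µg/mL doxycycline was added for 18 h to switch on an HA-tagged CTCF transgene. In 3 libraries (CTCF-WT) the transgene was wild-type CTCF, and in the other 3 (CTCF-dRBR) it lacked the RNA-binding region. For CTCF-WT the labelled genotype gives only the tagged endogenous CTCF, so this group was read from the sample titles. Each genotype is a single engineered SEM line, and no untreated library was analysed here, so the comparison is between 2 forms of the transgene and not between the presence and absence of CTCF.

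MHC class II molecules are pairs of an alpha and a beta chain (HLA-DR, HLA-DQ and HLA-DP) that show peptides from the endosome to CD4+ T cells. CD74, the invariant chain, escorts the new pairs to the endosome and blocks their groove until it is cut, and HLA-DM (HLA-DMA with HLA-DMB) then exchanges its last fragment for a peptide. CIITA is the coactivator on which transcription of all these genes depends, and it does not bind DNA itself: it docks on factors held by the X and Y boxes of their promoters. B cells express the pathway constitutively, from the precursor stage on.

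The proximal promoters are shown first, because the X and Y boxes are what ties the 8 HLA genes and CD74 to CIITA. Of the 10 genes, 8 were matched in the RefSeq promoter table (GRCh38.p14), all but HLA-DRA and CIITA. Each line below is a 60-base window on the strand of the gene that ends before its start site. Capitals mark each match to a loose form of the X box, CNAGNNAC, and each CCAAT box, the core of the Y box, which reads ATTGG in the opposite direction.
HLA-DRB1 (chr6:32589876-32589935, minus strand): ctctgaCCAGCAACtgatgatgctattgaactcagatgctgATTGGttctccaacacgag
HLA-DQA1 (chr6:32637296-32637355, plus strand): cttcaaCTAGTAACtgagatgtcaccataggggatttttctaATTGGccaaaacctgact
HLA-DQB1 (chr6:32666727-32666786, minus strand): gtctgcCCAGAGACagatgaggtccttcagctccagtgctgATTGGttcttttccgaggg
HLA-DPA1 (chr6:33073697-33073756, minus strand): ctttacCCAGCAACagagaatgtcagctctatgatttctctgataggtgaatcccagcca
HLA-DPB1 (chr6:33075866-33075925, plus strand): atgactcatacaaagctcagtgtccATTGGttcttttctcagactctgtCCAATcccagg
HLA-DMA (chr6:32953159-32953218, minus strand): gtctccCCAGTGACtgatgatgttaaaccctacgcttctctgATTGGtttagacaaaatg
HLA-DMB (chr6:32941065-32941124, minus strand): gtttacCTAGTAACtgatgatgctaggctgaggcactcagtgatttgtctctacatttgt
CD74 (chr5:150412940-150412999, minus strand): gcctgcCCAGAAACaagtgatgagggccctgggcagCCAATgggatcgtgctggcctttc

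In HLA-DRB1, HLA-DQA1, HLA-DQB1, HLA-DMA and CD74 both were found, with the first letter of the X box 81 to 123 bases before the start site and 22 to 28 bases between the boxes. HLA-DPA1 and HLA-DMB held the X box letters without a CCAAT box 10 to 45 bases behind them, and HLA-DPB1 held CCAAT boxes without the X box letters. The 300-base entry of HLA-DMB held 1 CCAAT box elsewhere, and that of HLA-DPA1 held 0. HLA-DPA1 has a second promoter entry further upstream, in which neither was found. Over all 35116 promoter entries of the same 300-base length, 39.3% held CNAGNNAC and 34.6% held CCAAT when both strands were searched. An X box match followed by a CCAAT box in either direction at a gap of 10 to 45 bases was held by 2.60% of entries, again on either strand. In the genes above such pairs were sought only on the strand of the gene. The loose X box was chosen after these promoters had been read, so the shares are a description and no test was made of them. CNAGNNAC and CCAAT cannot overlap in these pairs, and a missing match says only that those letters are not in the window.

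In GRCh37, the build of the deposited tables, the 8 HLA genes lie on chromosome 6 between 32407655 (the start of HLA-DRA, plus strand) and 33057473 (the end of HLA-DPB1, plus strand). CD74 lies on chromosome 5 at 149781200 to 149792532 on the minus strand, and CIITA on chromosome 16 at 10960079 to 11036878 on the plus strand. HLA-DPA1 and HLA-DPB1 overlap on opposite strands, HLA-DMA overlaps BRD2 and CIITA overlaps DEXI, each on opposite strands. The tables are named as stranded, but how strand was used in counting is not given in the sources used here, so reads from such a pair cannot be told apart with certainty. HLA genes differ strongly between people and were counted against the reference haplotype, and the effect of that was not tested. The expected count of HLA-DQA1 was fractional in 5 of 6 libraries, that of HLA-DRB1 in 3 and that of CIITA in 3, where the counting tool divided reads between genes. That of HLA-DRA, HLA-DQB1, HLA-DPA1, HLA-DPB1 and CD74 was whole in every library, within 0.001 of a read.

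The library labelled CTCF-dRBR replicate 1 stood apart from the others and bears on several of the values below. Its total count was 30034505, against 48912209 to 53166735 in the other 5, and its rank correlation with them across genes was 0.913 to 0.968, while the other pairs of libraries lay between 0.971 and 0.997. Its difference from the other 5 fell with the GC content of the gene, with a Spearman's rho of -0.79 across genes, which are not independent replicates. The same rho was 0.72, 0.69 and 0.34 in CTCF-WT replicates 1, 2 and 3, and -0.43 and 0.51 in CTCF-dRBR replicates 2 and 3. The trend was thus not confined to 1 library, and leaving out CTCF-dRBR replicate 1 alone does not correct for GC content. The share of TPM in protein-coding genes ran from 30.2% to 63.2% per library. Of 10 markers of B-cell precursors, 9 passed the filter on low counts, DNTT being the exception, and their summed level was 924 to 1119 CPM in CTCF-WT and 630 to 1092 CPM in CTCF-dRBR. Among them RAG1 was higher without overlap, with a mean of 1.71 against 4.82 CPM (log2 fold change 1.48, adjusted p = 0.0959), EBF1 was also higher and PAX5 lower without overlap. Over all genes tested, 20% were higher and 17.5% lower without overlap. CTCF itself had 210, 211 and 249 CPM in CTCF-WT and 273, 264 and 252 CPM in CTCF-dRBR, a count that cannot tell the endogenous transcript from either transgene and so does not check the labels.

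Levels were compared between genes in TPM, which divides by transcript length. CD74 was the highest of the 10. Its mean was 229 ± 55.8 TPM with wild-type CTCF and 274 ± 151 TPM with the mutant (SD, n = 3 each). HLA-DPA1 followed with 63.8 ± 18.8 and 95.1 ± 10.5 TPM, and HLA-DRA with 49.4 ± 20.2 and 90.0 ± 17.1 TPM. HLA-DMA (mean of the 6 libraries 11.9 TPM), HLA-DPB1 (11.1 TPM) and HLA-DQB1 (10.8 TPM) formed a middle group, CIITA had 7.67 TPM, and HLA-DRB1 (2.99 TPM), HLA-DMB (2.71 TPM) and HLA-DQA1 (0.645 TPM) were lowest. Neighbours in this order did not all separate. HLA-DPA1 exceeded HLA-DRA in 5 of 6 libraries, HLA-DMA exceeded HLA-DPB1 in 4, HLA-DPB1 exceeded HLA-DQB1 in 3 and HLA-DRB1 exceeded HLA-DMB in 5, while the other steps held in 6 of 6. The alpha chains of HLA-DR and HLA-DP were thus listed well above their beta chains, and the alpha chain of HLA-DQ far below its own.

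**Figure D1:**
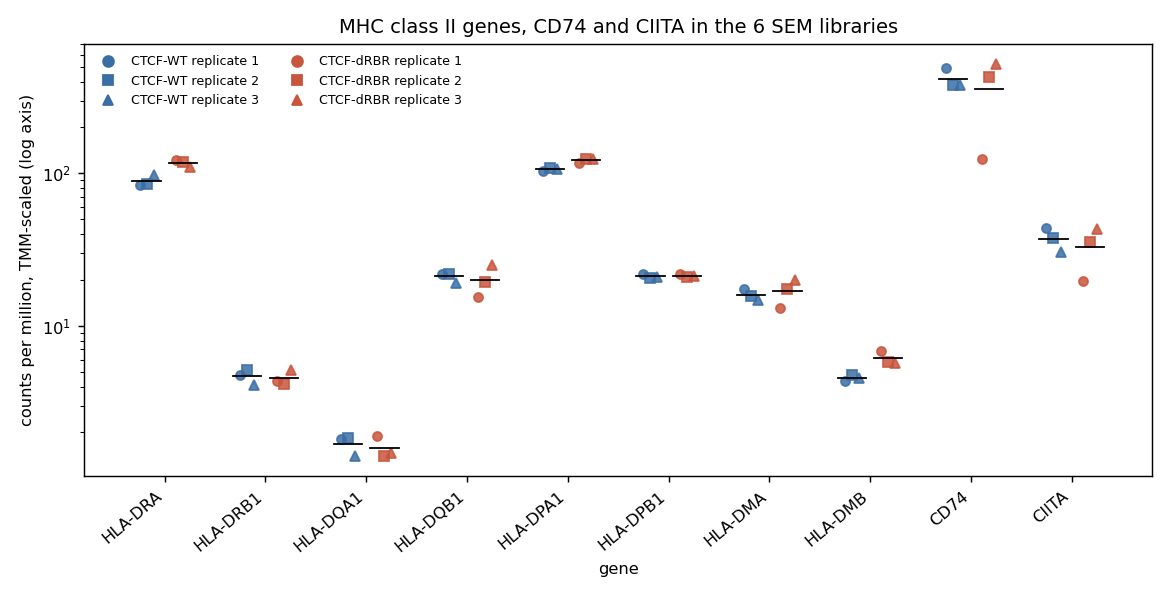
CPM (read counts scaled to a common library size by the TMM method, log axis), of the 10 genes in each of the 6 libraries; blue points are CTCF-WT, red points CTCF-dRBR, the shape gives the replicate and the black bar is the mean of the 3. HLA-DRA, HLA-DPA1 and HLA-DMB are higher in every CTCF-dRBR library, and CD74 and CIITA have their lowest value in CTCF-dRBR replicate 1.

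The question of the comparison was whether the RNA-binding region of CTCF matters for the expression of these genes. By limma-voom with Benjamini-Hochberg adjustment over the 14044 genes with a CPM (the read count scaled to a common library size) of 1 or more in at least 1 library, 0 of the 10 genes passed an adjusted p of 0.05, where the background was 0 of 14044 genes (0%). The unadjusted p was under 0.05 for 2 of the 10 genes, both higher in CTCF-dRBR, and for 3569 of all genes (25.4%), 12.6% higher and 12.8% lower. The 2 groups of CPM values did not overlap for 3 of the 10 genes, all higher in CTCF-dRBR, and for 20% of all genes in that direction. For 0 of the 10 they were lower without overlap, against 17.5% of all genes. These shares are near the background, or below it for the lower direction, and nothing is read from them about the pathway as a whole. The median log2 fold change of the 10 genes was -0.01, as was that of all genes tested, with 5 of the 10 above 0 and 5 below. Nothing says that the 3 libraries of a group came from separate cultures, so p-values measure the spread between these libraries, which may be technical. edgeR's quasi-likelihood test also called 0 genes, with 3462 at an unadjusted p under 0.05, whereas DESeq2 called 1619 (11.5%), among them 1 of the 10. Of the 10 genes, 5 passed with library quality weights, where 68.2% of all genes did, 1 passed with the GC trend removed (10.5% of all genes), 0 when CTCF-dRBR replicate 1 was left out (3.9%), and 4 when that library was left out after removal of the GC trend (25%).

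HLA-DRA, the alpha chain shared by all HLA-DR molecules, had 83.3, 85.8 and 97.4 CPM in CTCF-WT and 122, 119 and 109 CPM in CTCF-dRBR. The lowest of the mutant values exceeded the highest wild-type value. The log2 fold change was 0.40 with an SE of 0.10 (95% interval 0.15 to 0.65), a 1.32-fold higher level, with an adjusted p of 0.137. It was above 0 in 22 of 22 alternative fits, at 0.31 to 0.92, with adjusted p-values of 0.000271 to 0.482. The 0.31 came with no filter, where the median of all genes was 0.19. The highest values, 0.91 and 0.92, came from the fits on TPM, where that median was 0.40 and 0.54. HLA-DRA passed in 4 of the 22, with DESeq2, with library quality weights, and after removal of the GC trend with and without CTCF-dRBR replicate 1. With the GC trend removed, the replicate block ended that call (adjusted p 0.0382 without the block and 0.170 with it). Without CTCF-dRBR replicate 1 the log2 fold change was 0.36, so the difference did not rest on that library. HLA-DRB1, the main HLA-DR beta chain, had 4.78, 5.10 and 4.11 CPM in CTCF-WT and 4.38, 4.13 and 5.14 CPM in CTCF-dRBR. The groups overlapped, and the log2 fold change was -0.03 ± 0.17 (SE) with an adjusted p of 0.899.

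HLA-DPA1, the alpha chain of HLA-DP, had 104, 109 and 107 CPM in CTCF-WT and 118, 124 and 124 CPM in CTCF-dRBR. These groups did not overlap either, but the difference was small, with a log2 fold change of 0.19 ± 0.08 (SE) and an adjusted p of 0.200, and 0.098 with the GC trend removed. Its beta chain HLA-DPB1 had 21.7, 20.6 and 21.0 CPM against 21.8, 20.9 and 21.1 CPM. The groups overlapped, with a log2 fold change of 0.01 (95% interval -0.25 to 0.26) and an adjusted p of 0.964, and 0.14 with the GC trend removed.

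HLA-DQA1, the alpha chain of HLA-DQ, had 57 to 94.0 reads per library, which gave 1.81, 1.83 and 1.40 CPM in CTCF-WT and 1.91, 1.39 and 1.47 CPM in CTCF-dRBR. HLA-DQB1, its beta chain, had 22.0, 22.0 and 19.2 CPM in CTCF-WT and 15.4, 19.3 and 24.96 CPM in CTCF-dRBR. The 3 CTCF-dRBR values of HLA-DQB1 bracketed the CTCF-WT values. The log2 fold changes were -0.10 for HLA-DQA1 and -0.08 for HLA-DQB1, with adjusted p-values of 0.748 and 0.771. That of HLA-DQA1 ran from -0.23 to -0.01 when 1 library was left out and was -0.25 with the GC trend removed, and that of HLA-DQB1 turned to 0.06 without CTCF-dRBR replicate 1.

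HLA-DMB, the beta chain of the peptide exchanger HLA-DM, had 4.34, 4.77 and 4.53 CPM in CTCF-WT and 6.85, 5.80 and 5.71 CPM in CTCF-dRBR. Again the values of the groups did not overlap, on 205 to 299 reads per library. The log2 fold change of 0.42 ± 0.15 (SE) was a 1.33-fold higher level, with an adjusted p of 0.169. It was above 0 in 22 of 22 alternative fits and was 0.40 with the GC trend removed. It passed in 2, with quality weights and with the GC trend removed without CTCF-dRBR replicate 1. Its partner HLA-DMA had 17.4, 15.6 and 14.8 CPM against 13.04, 17.5 and 20.1 CPM. The lowest and the highest of these 6 values were both CTCF-dRBR libraries, and the log2 fold change was 0.09 with an adjusted p of 0.739, moving to 0.24 without CTCF-dRBR replicate 1 and to 0.28 with the GC trend removed.

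CD74 had 490, 382 and 382 CPM in CTCF-WT and 125, 431 and 524 CPM in CTCF-dRBR. One library, CTCF-dRBR replicate 1, lay far below the other 5, and the highest value was also a CTCF-dRBR library. The log2 fold change was -0.44 with a 95% interval of -1.70 to 0.82 and an adjusted p of 0.561, and it turned to 0.19 (adjusted p = 0.377) without that library and to 0.09 (adjusted p = 0.854) with the GC trend removed. Without the library and with the GC trend removed it was 0.43 with an adjusted p of 0.0227. CIITA had 43.6, 37.6 and 30.3 CPM in CTCF-WT and 19.6, 35.6 and 43.4 CPM in CTCF-dRBR. Its lowest value was in the same library. The log2 fold change was -0.18 (95% interval -0.89 to 0.53, adjusted p = 0.673), and it turned to 0.09 (adjusted p = 0.710) without that library and to 0.21 (adjusted p = 0.224) with the GC trend removed. No direction was established for either gene.

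**Figure D2:**
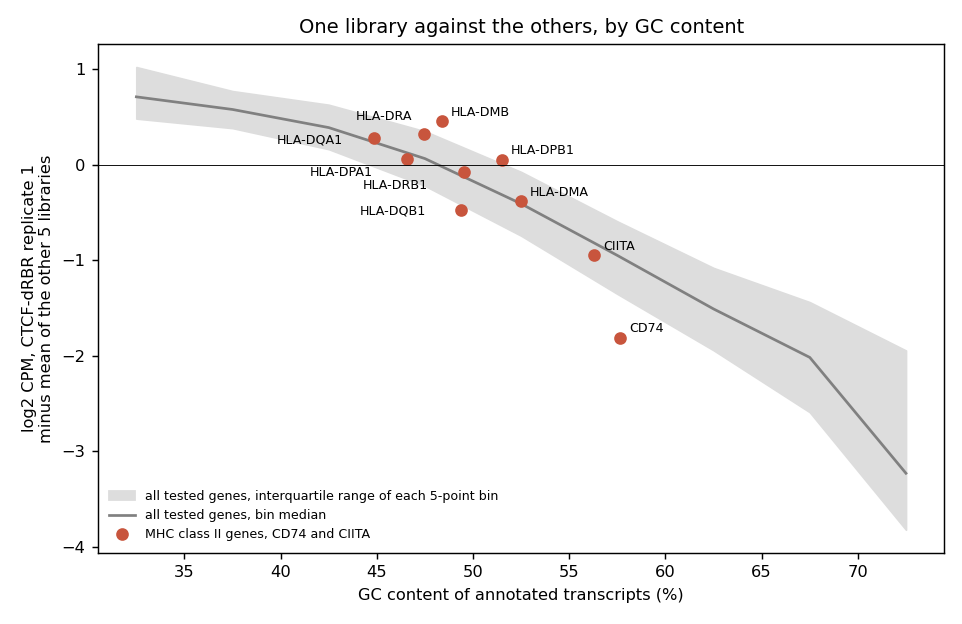
The log2 CPM of CTCF-dRBR replicate 1 minus the mean of the other 5 libraries, against the GC content of each gene's annotated transcripts in percent; red points are the 10 genes, the grey line the median of all tested genes in bins of 5 percentage points and the band the interquartile range of each bin. CIITA lies inside the band at -0.95, and CD74 lies below it at -1.81.

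CTCF-dRBR replicate 1 was the lowest library for 4 of the 10 genes, with GC contents of 49.4% to 57.7%, and the highest for another 4 (HLA-DRA, HLA-DQA1, HLA-DPB1 and HLA-DMB), with GC contents of 44.9% to 51.5%. CIITA (56.3%) was -0.95 there on the log2 scale relative to the mean of the other 5 libraries, and the median of the 2018 genes of like GC content was also -0.95. HLA-DMA (52.5%) was at -0.38, where 2071 genes of like GC content had a median of -0.41. CD74 (57.7%) was at -1.81, below the median of -0.95 of its bin. HLA-DQB1 (49.4%) was at -0.47, and HLA-DMB (48.4%) and HLA-DRA (47.5%) at 0.46 and 0.32, where the median of their bin was 0.06. These values come from 1 library, and the part of GC content in them was not tested beyond the fits with the trend removed.

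**Figure D3:**
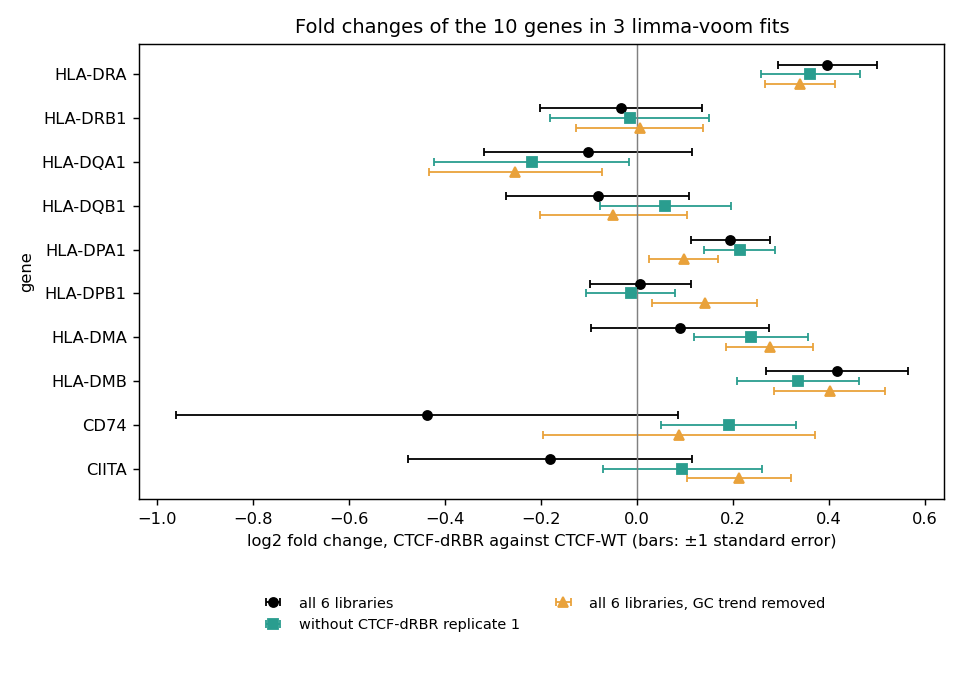
Log2 fold changes of the 10 genes, CTCF-dRBR against CTCF-WT, in 3 limma-voom fits (all libraries, without CTCF-dRBR replicate 1, and all libraries with the GC trend removed), with bars of 1 standard error. HLA-DRA, HLA-DPA1, HLA-DMA and HLA-DMB lie above 0 in the 3 fits, HLA-DQA1 lies below, and HLA-DRB1, HLA-DQB1, HLA-DPB1, CD74 and CIITA change sign.

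On the TPM scale, whose protein-coding share differed between libraries, mean TPM was higher in CTCF-dRBR for 9 of the 10 genes, and the groups did not overlap for 4 (HLA-DRB1, HLA-DMA, HLA-DMB and CIITA), each with an exact permutation p of 0.1, the smallest that 3 against 3 libraries can give (two-sided). On this scale the median of all genes lay 0.40 above 0 (log2 of TPM + 1). With TPM rescaled to sum over protein-coding genes only, 2 genes did not overlap, HLA-DRA at 123 ± 13.6 against 168 ± 11.5 and HLA-DMB at 4.57 ± 0.50 against 6.58 ± 0.87 (mean ± SD, n = 3 each, exact permutation p = 0.1 for each). CD74 then had 586 ± 61.7 against 550 ± 347, and CIITA 16.0 ± 2.44 against 17.7 ± 5.40, both overlapping. The share of all genes without overlap was not computed for TPM or rescaled TPM. Nothing is therefore read from the counts of 4 and 2 genes.

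Ratios between partner genes within a library do not depend on its scaling, but they were not corrected for the GC trend. The HLA-DRA/HLA-DRB1 log2 count ratio was 4.12, 4.07 and 4.57 in CTCF-WT and 4.81, 4.85 and 4.41 in CTCF-dRBR. The groups overlapped, with a difference of 0.44 (exact permutation p = 0.2, two-sided). That of HLA-DPA1/HLA-DPB1 was 2.26, 2.40 and 2.35 against 2.43, 2.58 and 2.56, the only one of the 5 pairs without overlap between the groups, with a difference of 0.18 (exact permutation p = 0.1, the smallest possible, and 0.375 after Benjamini-Hochberg adjustment over the 5 pairs). On TPM the same ratio ran from 6.63 to 7.75 over the 6 libraries, and its groups overlapped (exact permutation p = 0.4). HLA-DPA1 and HLA-DPB1 differ in GC content (46.6% and 51.5%). With the GC trend removed their log2 fold changes were 0.098 and 0.14, so HLA-DPA1 was no longer the higher of them. With CTCF-dRBR replicate 1 also left out they were 0.16 and 0.05. The HLA-DMA/HLA-DMB ratio was 2.00, 1.71 and 1.71 against 0.93, 1.596 and 1.82 (difference -0.36, exact permutation p = 0.3).

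The CD74/HLA-DRA ratio, the invariant chain relative to a chain it escorts, was 2.56, 2.16 and 1.97 on the log2 count scale in CTCF-WT and 0.03, 1.85 and 2.26 in CTCF-dRBR. In TPM, CD74 was 4.06 to 5.90 times HLA-DRA in the CTCF-WT libraries and 3.72 and 5.05 times in CTCF-dRBR replicates 2 and 3, but only 0.988 times in CTCF-dRBR replicate 1. The difference of -0.85 (exact permutation p = 0.3) rested on that library. HLA-DQA1/HLA-DQB1 differed by 0.03 (exact permutation p = 1). It was -3.60, -3.59 and -3.78 against -3.02, -3.79 and -4.08, with the highest and the lowest value both in CTCF-dRBR.

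**Figure D4:**
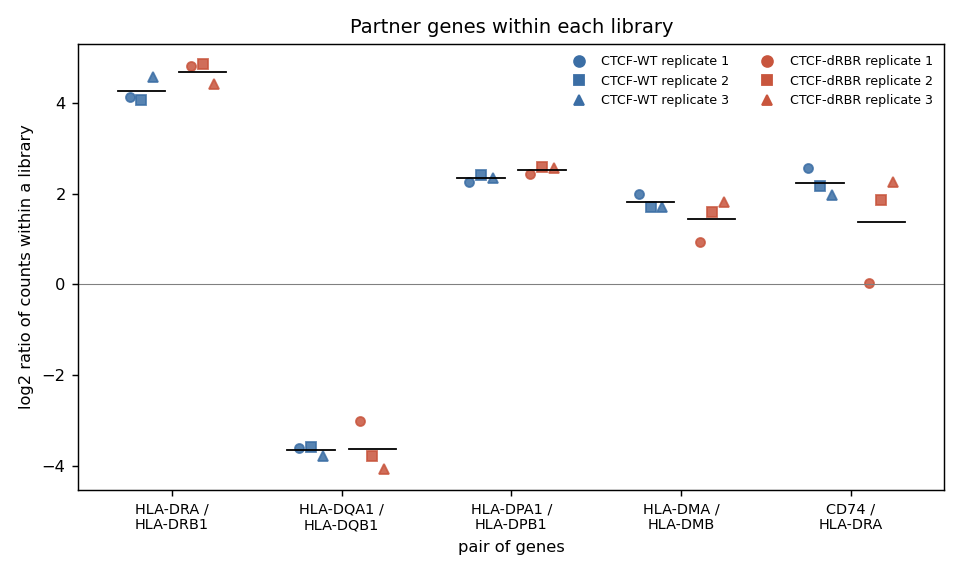
Log2 ratio of the counts of 2 partner genes within each library for 5 pairs; colors, shapes and mean bars are those of the plot of CPM by library. The HLA-DPA1/HLA-DPB1 ratio is the only one whose groups do not overlap, and the CD74/HLA-DRA ratio of CTCF-dRBR replicate 1, at 0.03, is far from the other 5.

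Most other class II genes were near 0. Of 13 listed, 11 had a row, 2 (HLA-DRB3 and HLA-DRB4) were not matched to one, and 2 passed the filter, neither past an adjusted p of 0.05. HLA-DOA, the alpha chain of HLA-DO, a brake on HLA-DM, had a mean of 13.1 TPM, with 49.9, 46.4 and 46.0 CPM in CTCF-WT and 34.1, 52.3 and 59.0 CPM in CTCF-dRBR (log2 fold change 0.03, adjusted p = 0.927; 0.22 without CTCF-dRBR replicate 1). It was 0.34 with the GC trend removed and passed in 3 of 22 alternative fits, as higher. Its partner HLA-DOB reached at most 0.28 CPM. HLA-DRB5, a paralog of HLA-DRB1 that can share reads with it, had 0.57 to 2.15 CPM, a log2 fold change of -0.10 and an adjusted p of 0.884, which turned to 0.30 without CTCF-dRBR replicate 1 and to 0.16 with the GC trend removed.

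Of 12 factors and coactivators that work with CIITA at the promoter, 12 were tested and 0 passed, with a median log2 fold change of -0.18. Groups did not overlap for 1 as higher and 3 as lower, against 20% and 17.5% of all genes tested. KAT2B, a histone acetyltransferase, had 15.2 to 17.5 CPM in CTCF-WT and 25.8 to 32.1 CPM in CTCF-dRBR (log2 fold change 0.75, adjusted p = 0.0959). It was 0.51 with the GC trend removed and passed in 7 of 22 alternative fits. NFYA, a subunit of the factor that binds the CCAAT box, had 36.4 to 43.2 against 23.5 to 33.9 CPM (-0.61, adjusted p = 0.139). It was -0.67 with the GC trend removed and passed in 4. The other subunit named, NFYB, was at 0.35 (adjusted p = 0.281; 0.02 with the GC trend removed), and RFXANK, a subunit of the X box factor, at -0.69 (adjusted p = 0.210), which shrank to -0.06 with the GC trend removed.

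Of 14 regulators of CIITA, 12 were tested and 0 passed, with a median of 0.01. Groups did not overlap for 4 as higher and 1 as lower, against 20% and 17.5% of all genes tested. FOXO1, a transcription factor of B-cell precursors, had 5.40 to 6.23 CPM in CTCF-WT and 11.6 to 12.9 CPM in CTCF-dRBR, the largest log2 fold change of the list (1.03 ± 0.14 SE, adjusted p = 0.0959). It was also 1.03 with the GC trend removed and passed in 7 of 22 alternative fits, all as higher. EBF1, which specifies the B lineage, had 205 to 229 against 251 to 275 CPM (0.27, adjusted p = 0.163; 0.05 with the GC trend removed). PAX5, which maintains B-cell identity, had 322 to 392 against 165 to 307 CPM (-0.60, adjusted p = 0.184; -0.26 with the GC trend removed), and TCF3 stood at -0.59 (adjusted p = 0.196) and at 0.20 with the GC trend removed.

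Interferon gamma is the best known inducer of CIITA outside B cells. Of 8 genes of its signal, 6 were tested and 0 passed, with a median of 0.21. Groups did not overlap for 2 as higher and 0 as lower, against 20% and 17.5% of all genes tested. JAK1, a kinase attached to the receptor, had 185 to 229 against 264 to 322 CPM (0.51, adjusted p = 0.127). It was 0.41 with the GC trend removed and passed in 4 of 22 alternative fits. IFNGR1, the ligand-binding receptor chain, had 26.1 to 30.2 against 33.5 to 38.8 CPM (0.36, adjusted p = 0.158, and 0.07 with the GC trend removed). IRF1, a target that acts on CIITA, was at -0.03 (adjusted p = 0.908), at 0.11 without CTCF-dRBR replicate 1 and at 0.29 with the GC trend removed. It passed as higher in 2 of 22 alternative fits, with the GC trend removed with and without CTCF-dRBR replicate 1. With the replicate block and the GC trend removed it did not pass.

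Of 14 genes of endosomal processing and class II turnover, 11 were tested and 0 passed, with a median of -0.10. Groups did not overlap for 1 as higher and 3 as lower, against 20% and 17.5% of all genes tested. CTSS, the protease that trims CD74 in B cells, had 60.9 to 67.8 against 76.9 to 82.2 CPM (0.34, adjusted p = 0.140; 0.05 with the GC trend removed), and LGMN, an asparagine-specific protease, was at 0.27 (adjusted p = 0.203; 0.46 with it removed). CTSB, a lysosomal protease, had 116 to 143 against 70.2 to 96.8 CPM (-0.59, adjusted p = 0.135; -0.34 with it removed), and CD63, a tetraspanin of late endosomes, 71.6 to 98.5 against 56.1 to 63.4 CPM (-0.53, adjusted p = 0.140; -0.32 with it removed).

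**Figure D5:**
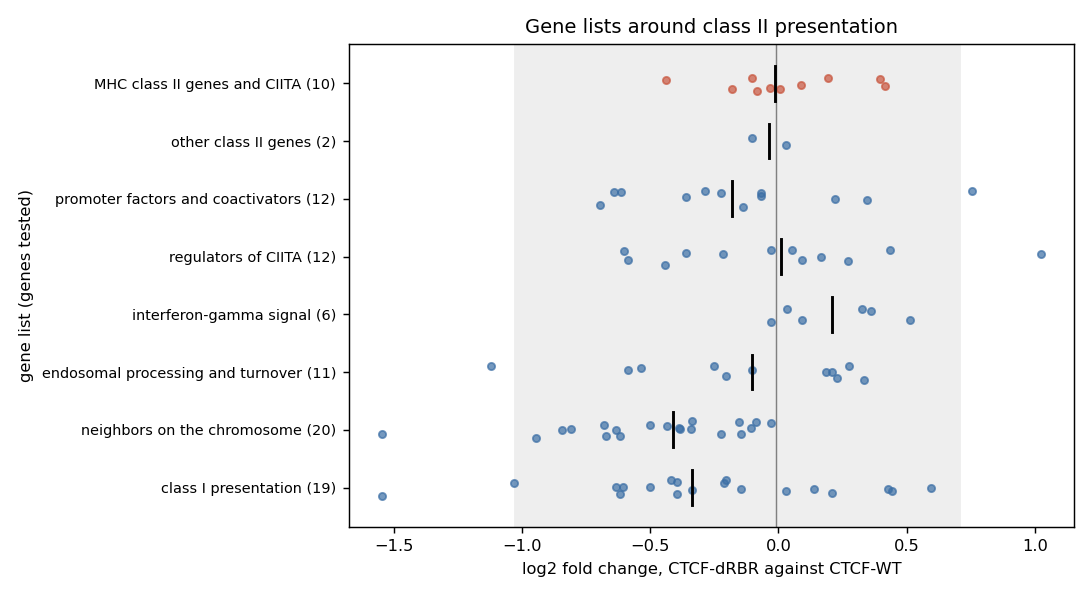
Log2 fold changes, CTCF-dRBR against CTCF-WT, of the 10 genes (red) and of the tested genes of 7 lists (blue); black bars are list medians, the grey line is the median of all 14044 genes and the band their 5th to 95th percentile, from -1.03 to 0.71. The 10 genes lie between -0.44 and 0.42, inside the band.

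The class I presentation pathway, which shows peptides from the cytosol to CD8+ T cells, was set beside the class II genes. Of its 20 rows (TAP2 has 2), 19 were tested and 0 passed, with 2 not overlapping as higher and 3 as lower (20% and 17.5% of all genes tested). Its median log2 fold change was -0.34 and its median GC content 55.2%, against -0.01 and 49.4% for the 10 genes. With the GC trend removed its median was 0.00 and that of the 10 genes 0.12, and the difference between the pathways was not tested. ERAP2 and ERAP1, the peptidases that trim class I peptides, were at 0.60 (adjusted p = 0.133; 0.33 with the GC trend removed) and 0.44 (adjusted p = 0.138; 0.22 with it removed). CALR, a chaperone of the endoplasmic reticulum, was at -0.40 (adjusted p = 0.135, and -0.06 with the GC trend removed). TAP2, a subunit of the peptide transporter, was at -0.50 (adjusted p = 0.187, and -0.45 with the GC trend removed).

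Genes that lie near the 10 on their chromosomes were listed because CTCF shapes contacts between neighbouring genes. Of 26 rows, 20 were tested and 0 passed. The log2 fold change was below 0 in 20 of 20, with a median of -0.41, and 6 were lower without overlap (17.5% of all genes tested). Their median GC content was 56.4%, and their median moved to -0.25 without CTCF-dRBR replicate 1 and to -0.04 with the GC trend removed. The median of all genes tested was -0.01. TAP1, TAP2, PSMB8 and PSMB9 are also in the class I list, so the lists are not independent. A second TAP2 row had 0 reads in CTCF-WT replicate 3 and CTCF-dRBR replicates 1 and 2 (SE 2.96). TCOF1, next to CD74, had 105 to 132 against 39.8 to 92.0 CPM (-0.84, adjusted p = 0.164; -0.26 with the GC trend removed), and RING1, near HLA-DPB1, 24.1 to 30.4 against 11.5 to 22.1 CPM (-0.67, adjusted p = 0.170; -0.03 with the GC trend removed).

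Other cell types that carry class II were looked for by their markers. In bulk RNA, fewer cells of a type and less RNA per cell cannot be told apart. Of 6 monocyte and macrophage markers, 2 passed the filter, and the summed level was 10.6 to 13.4 CPM in CTCF-WT and 8.12 to 12.8 CPM in CTCF-dRBR. Of 6 dendritic cell markers, 1 passed, CLEC9A, and their summed level of 17.8 to 24.4 CPM in CTCF-WT and 24.9 to 60.5 CPM in CTCF-dRBR was nearly all CLEC9A, with CLEC4C at 0 in CTCF-dRBR. XCR1, another dendritic cell marker, reached at most 0.20 CPM. CLEC9A had 17.2 to 23.9 CPM in CTCF-WT and 24.1 to 59.95 CPM in CTCF-dRBR (log2 fold change 0.68, adjusted p = 0.250). Its groups did not overlap, as for 20% of all genes tested in that direction. Its highest value, 59.95 CPM, was in CTCF-dRBR replicate 1, against at most 25.9 CPM in the other libraries. HLA-DRA, HLA-DQA1, HLA-DPB1 and HLA-DMB were also highest in CTCF-dRBR replicate 1. CLEC9A has a GC content of 39.7%. Genes of 35% to 40% GC had a median log2 deviation of 0.58 in that library, relative to the other libraries, and an upper quartile of 0.77. All libraries came from engineered SEM cells, and the part of CLEC9A in the levels of these class II genes was not tested. Of 6 mature B or plasma cell markers 2 passed, and their sum (142 to 153 against 92.5 to 191 CPM) was nearly all IGHM. MS4A1 had a mean of 0.49 against 1.12 CPM (log2 fold change 1.04, adjusted p = 0.163). It was higher without overlap, as were 20% of all genes tested. Of 6 T cell markers 1 passed, TRAC, with CD3D at 0 in every library (summed level 42.6 to 44.5 against 40.4 to 48.9 CPM). Of 4 erythroid markers 0 passed, with HBA1 and ALAS2 at 0.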

How the data were processed

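RNA-seq was made from 6 libraries of rRNA-depleted total RNA. Per the submitters' processing notes and the paper's methods, the authors trimmed reads with Trim Galore 0.6.3, aligned them to GRCh37 with STAR 2.7.9a and quantified genes with RSEM 1.3.1 on Gencode annotation. The deposited tables hold expected counts, not normalized, and TPM, scaled by transcript length and to the same sum in each library.

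The 10 genes, the 7 lists and the markers were chosen with earlier results of these data known. Genes with at least 1 CPM in any library were kept (14044). The main test was limma-voom (limma 3.58.1) with TMM factors and no covariate, 3 CTCF-dRBR against 3 CTCF-WT libraries, two-sided, with adjustment over all genes tested. Expected counts were rounded for edgeR 4.0.16 and DESeq2 1.42.0. TPM values and ratios were compared by exact permutation of the libraries (scipy). The GC trend was removed per library by loess (span 0.5) of each gene's log2 CPM deviation on GC content, known for 97.2% of tested genes. Total counts ran from 30034505 to 53166735, so that 3 reads are 0.0566 to 0.100 CPM, which covers counting error only. Of each list the text names genes past an adjusted p of 0.05 and, as there were none, the 2 with the smallest unadjusted p in each direction, plus genes of the class II list with a mean of 1 TPM or more. CLEC9A, RAG1, CD3D and the other markers named, HLA-DOB and the unmatched genes were singled out after their values were seen. Fits were tested on simulated data. Alternatives were other tests, scalings, filters, TPM, leaving out each library, a replicate block, GC removal and protein-coding genes only. Spike-in rows (92) were 0. Gene positions are from a GRCh37 lift of Gencode, promoters from RefSeq.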

Additional observations from a re-analysis of the deposited data

How the results depend on the processing

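The count of all genes past an adjusted p of 0.05 was 0 in the main fit, 1619 with DESeq2, 9583 with library quality weights (68.2% of genes; weight of CTCF-dRBR replicate 1 0.0969), 833 and 760 on log2(TPM + 1) and log2(TPM + 0.1), 1432 with the GC trend removed and 3334 with it removed without CTCF-dRBR replicate 1; leaving out 1 library gave 0 to 535, the 535 without CTCF-dRBR replicate 1. Of the 10 genes, 1, 5, 0, 0, 1 and 4 passed in those 6 fits, and 0 when 1 library was left out. Of the list genes, 9, 49, 2, 2, 12 and 21 passed in the same fits, and 0 to 3 when 1 was left out. The lists held 2, 12, 12, 6, 11, 19 and 20 tested rows, and some genes are in more than 1 list. Of all genes, 11.5% passed with DESeq2, 68.2% with quality weights and 10.5% with the GC trend removed. With it removed without CTCF-dRBR replicate 1, 25% passed. The list counts were not tested against these shares, and nothing is read from them. With the replicate block 0 genes passed (1423 at an unadjusted p under 0.05), also with GC removed (3083), where it ended the call of HLA-DRA (adjusted p = 0.170), and it changed no other call of the 10 genes; same-numbered libraries deviated from their group means with correlations of -0.34, 0.099 and -0.47, so the numbers were not taken to pair them. The cause of these differences was not tested.

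HLA-DRA passed at 0.40 with DESeq2 (adjusted p = 0.0232), 0.46 with quality weights (0.000271), 0.34 with GC removed (0.0382) and 0.33 with GC removed without CTCF-dRBR replicate 1 (0.0259). With quality weights HLA-DRB1 (-0.25, 0.0413), HLA-DQA1 (-0.35, 0.0207), HLA-DPA1 (0.20, 0.00275) and HLA-DMB (0.31, 0.00643) also passed, and without CTCF-dRBR replicate 1 and with GC removed HLA-DMA (0.32, 0.0273), HLA-DMB (0.33, 0.0424) and CD74 (0.43, 0.0227). Signs turned as follows. HLA-DRB1 was 0.36 and 0.47 on the 2 TPM scales, 0.0056 with upper quartile scaling, 0.042 with library size only, 0.0061 with GC removed, 0.0073 with the replicate block and GC removed and 0.0059 with GC removed without CTCF-dRBR replicate 1. HLA-DQB1 was 0.21 and 0.23 on TPM and 0.077 in that last fit. HLA-DPB1 was -0.072 with no filter. CD74 was 0.11 with quality weights, 0.068 and 0.067 on TPM, 0.087 with GC removed and 0.097 with the block too. CIITA was 0.51 and 0.57 on TPM, 0.21 with GC removed, 0.22 with the block too and 0.28 with GC removed without CTCF-dRBR replicate 1. The median of all genes was 0.40 and 0.54 on the TPM scales and 0.19 with no filter, so a TPM sign alone is not a change relative to other genes. On both TPM scales CIITA lay above that median, and HLA-DRB1, HLA-DQB1 and CD74 lay below it. TPM rescaled over protein-coding genes turned the TPM difference to -2.98 for HLA-DQB1 and -36.9 for CD74, and the HLA-DQA1/HLA-DQB1 ratio was -0.34 on TPM.

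Leaving out 1 library gave log2 fold changes of 0.34 to 0.47 for HLA-DRA, -0.13 to 0.041 for HLA-DRB1, -0.23 to -0.012 for HLA-DQA1, -0.26 to 0.059 for HLA-DQB1, 0.17 to 0.21 for HLA-DPA1, -0.013 to 0.022 for HLA-DPB1, -0.048 to 0.24 for HLA-DMA, 0.33 to 0.46 for HLA-DMB, -0.83 to 0.19 for CD74 and -0.42 to 0.095 for CIITA. TPM differences ran from -0.12 to 0.06 for HLA-DQA1 and from -1.02 to 132 for CD74, and the difference of the HLA-DQA1/HLA-DQB1 log2 ratio from -0.28 to 0.25.

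Depth limits the low genes: HLA-DQA1 rests on 57 to 94.0 reads a library and HLA-DRB1 on 131 to 265. With 3 libraries a group, exact permutation cannot go below a p of 0.1.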
